A study of Rattus norvegicus with 5 samples.

Results

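The genes described here are 8 that serve cholesterol synthesis and its feedback control, namely Hmgcs1, Idi1, Fdps, Fdft1, Sqle, Lss, Cyp51 and Insig1, and they were taken from the arrays by gene symbol. Of these 8 genes, 7 had probe sets with their symbol in the annotation used, and Hmgcs1 was not analysed here. The 7 genes, of 4736 named on the arrays, had 20 probe sets among 8740 in all, and 18 of the 20 were bright enough to be tested. None of the 8 is a receptor or carrier for cholesterol uptake, so uptake genes are given from a separate list.

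The arrays carried total RNA of Müller cells, the main glia of the retina, from male Sprague-Dawley rats. The diabetic group was 1 pool of Müller cells from the retinas of 12 rats, made diabetic with streptozotocin, a toxin of the insulin-producing pancreatic cells, kept diabetic for 6 months and given small insulin doses against wasting. It was measured on 2 arrays, of which the second is labelled a technical replicate, so the 2 were averaged. The normal group was 3 pools from healthy rats, 12 rats each, on 1 array per pool. All values therefore describe pools and not single animals, with 1 diabetic pool, and fewer cells of a type in a pool cannot be told apart from less RNA per cell.

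Cholesterol is built from acetyl units through mevalonate and the isoprenoid diphosphates, which also feed protein prenylation and ubiquinone, before squalene is committed to sterols. The SREBP transcription factors switch on nearly every enzyme of this route when sterols in the endoplasmic reticulum run low, and Insig1 retains them there when sterols are plentiful. The retina both makes cholesterol and takes it up from the blood, and Müller cells are among the retinal cells that release it in lipoproteins.

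SREBP factors act together with the factors NF-Y and Sp1, which bind the CCAAT box and the GC box, so the stretches before the start of the genes were read for these letters. The promoter table of RefSeq (rat build GRCr8) holds 6 of the 8 genes, without Sqle and Fdft1. In the 250 bases before the start, on either strand, CCAAT was present in 5 of the 6 (all but Cyp51), and in 34% of all 33469 promoters. GGGCGG was present in 5 of the 6 (all but Idi1), and in 30.5% of all promoters. The core letters of the sterol regulatory element of the LDL receptor, TCACCCCAC, and the looser forms TCACNCCAC and TCACCCNAC were in 0 of the 6 windows and in 1.34% of all promoters in any of the 3 forms, which says only that these letters are not in these windows. The windows given, 5′ to 3′ and ending at the base before the start, are those of Insig1, the feedback regulator, and of Fdps and Idi1, consecutive enzymes of the isoprenoid step; capitals mark CCAAT and GGGCGG on either strand. These 3 were chosen after the values were seen. The Insig1 window is chr4:8057770-8058019 on the minus strand, that of Fdps chr2:176804817-176805066 on the minus strand and that of Idi1 chr17:66547525-66547774 on the minus strand.
Insig1: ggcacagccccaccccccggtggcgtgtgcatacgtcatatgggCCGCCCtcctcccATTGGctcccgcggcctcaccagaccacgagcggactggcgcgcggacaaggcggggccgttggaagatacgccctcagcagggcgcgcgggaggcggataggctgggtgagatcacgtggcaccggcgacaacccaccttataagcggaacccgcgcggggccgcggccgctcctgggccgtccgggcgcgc
Fdps: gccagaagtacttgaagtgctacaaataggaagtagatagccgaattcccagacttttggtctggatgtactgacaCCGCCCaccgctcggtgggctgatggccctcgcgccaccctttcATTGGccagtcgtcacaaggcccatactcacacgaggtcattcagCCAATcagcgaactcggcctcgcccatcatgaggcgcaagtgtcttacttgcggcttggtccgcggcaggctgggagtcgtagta
Idi1: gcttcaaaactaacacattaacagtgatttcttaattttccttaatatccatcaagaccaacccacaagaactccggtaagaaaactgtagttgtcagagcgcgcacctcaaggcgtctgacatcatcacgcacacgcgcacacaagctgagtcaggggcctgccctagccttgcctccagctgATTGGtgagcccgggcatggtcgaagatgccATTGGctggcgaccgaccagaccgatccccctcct

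In diabetic Müller cells the sterol synthesis genes as measured here lay on both sides of the normal mean. Of the 18 tested probe sets 9 had a positive and 9 a negative difference, diabetic minus normal, with a median log2 difference of 6.7e-04, against -0.01 over all 6118 tested probe sets. This split rested on single pools, with 4 of 18 positive without normal pool 1 and 12 without normal pool 3. Without any scaling of the arrays 15 of the 18 were positive, as were 90.3% of all tested probe sets, whose median then lay at 0.47. The differences ran from -1.07 for a probe set of Fdft1, the squalene synthase, to 0.63 for a probe set of Fdps, the farnesyl diphosphate synthase. With limma 0 of the 18 had an adjusted p under 0.05, where 0% of all tested probe sets did (lowest adjusted p = 0.9999 among the 18, log2 scale, 3 normal pools and 1 diabetic pool). At an unadjusted p under 0.05 there were also 0 of the 18, against 1.6% of all tested probe sets, and no other tool was run. Signals throughout are log2 of the quantile-normalised intensity with a floor of 20, which is 4.32 on that scale, and they are compared only within a probe set.

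The spread between pools was wide for these genes. Their SD over the 3 normal pools had a median of 0.53 on the log2 scale (range 0.06 to 1.66), against 0.37 over all tested probe sets. For 16 of the 18 the difference between diabetic and normal was smaller than the range of the normal pools, as it was for 85.5% of all tested probe sets. The 95% interval of a difference had a median half-width of 1.33, a factor of 2.52 in either direction (half-widths 0.72 to 3.02), and these intervals are not adjusted for the number of probe sets. The 2 arrays of the diabetic pool differed from each other by more than the diabetic and normal means did in 14 of the 18, a count without a share over all tested probe sets. The median gap between the 2 arrays was 0.48, against 0.36 over all tested probe sets. The median size of the difference between diabetic and normal was 0.26, against 0.23 over all tested probe sets.

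**Figure D1:**
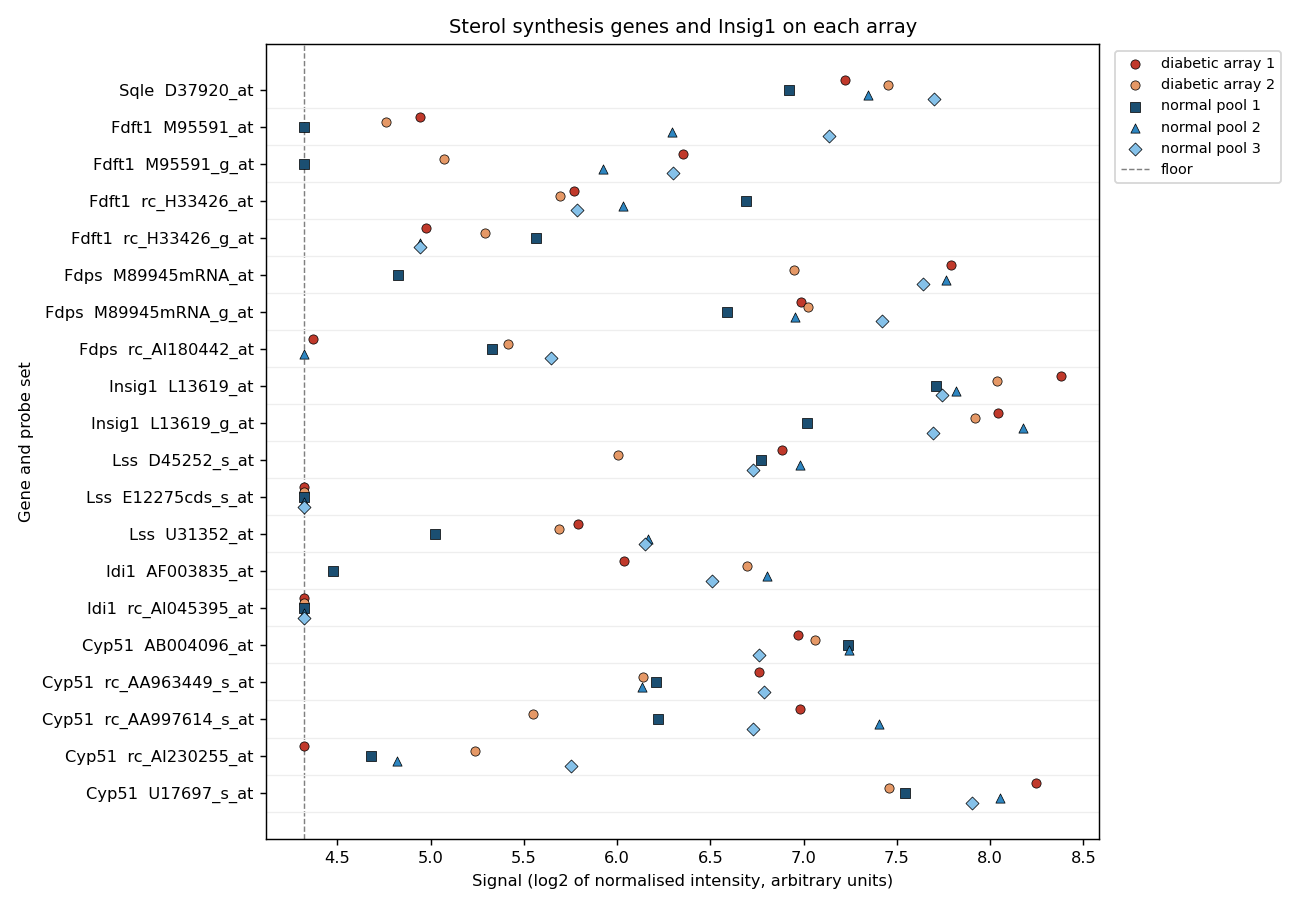
Signal of each of the 20 probe sets (rows, with gene and probe set) on each array, as log2 of the normalised intensity in arbitrary units; circles are the 2 diabetic arrays, the other symbols the 3 normal pools, and the dashed line is the floor of 4.32. Normal pool 1 sits far below the other normal pools for Idi1 (AF003835_at), Fdps (M89945mRNA_at) and Fdft1 (M95591_at), and both diabetic arrays lie above all normal pools only for Insig1 (L13619_at).

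Insig1 is the membrane protein that holds SREBP in the endoplasmic reticulum and is itself switched on by SREBP. Of the 7 measured member genes, only Insig1 had a probe set on which both diabetic arrays exceeded all normal pools. On L13619_at it had signals of 8.38 and 8.04 on the diabetic arrays, against 7.71, 7.82 and 7.74 in normal pools 1, 2 and 3. The 2 groups did not overlap and the normal pools were nearly equal. The log2 difference was 0.45 (SE 0.29, 95% interval -0.27 to 1.18), or 1.37 times normal, which did not pass limma's test (unadjusted p = 0.173, adjusted p = 0.9999). Of all tested probe sets 9.53% had both diabetic arrays above all normal arrays, so 1 of 18 is no more than the background.

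The paired probe set L13619_g_at, made from the same sequence entry, gave Insig1 signals of 8.04 and 7.92 on the diabetic arrays, against 7.02, 8.18 and 7.69 in the normal pools. Here the groups overlapped, since normal pool 2 lay above both diabetic arrays. The log2 difference was 0.35 (SE 0.50, 95% interval -0.90 to 1.6).

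Idi1, which isomerises isopentenyl diphosphate and so makes both building blocks of the isoprenoids, had signals of 6.04 and 6.70 on the diabetic arrays, against 4.48, 6.81 and 6.51 in the normal pools (AF003835_at). The diabetic arrays lay among normal pools 2 and 3 or below them, and normal pool 1 stood far below all of them. The log2 difference was 0.44 (SE 0.98, 95% interval -2.02 to 2.89). It was -0.30 without normal pool 1. The other Idi1 probe set, rc_AI045395_at, was at the floor on all 5 arrays and was not tested.

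Fdps joins these building blocks into farnesyl diphosphate, the branch point between sterols and prenyl groups. On M89945mRNA_at it had signals of 7.79 and 6.95 on the diabetic arrays, against 4.82, 7.76 and 7.64 in the normal pools. Normal pool 1 was again far below every other array. The log2 difference was 0.63 (SE 1.21, 95% interval -2.39 to 3.65), and -0.34 without normal pool 1. Its partner from the same entry, M89945mRNA_g_at, had 6.99 and 7.03 on the diabetic arrays, against 6.59, 6.95 and 7.42 in the normal pools. Both diabetic arrays lay inside the normal range there, with a log2 difference of 0.02 (SE 0.46). The third, rc_AI180442_at, was dim, with 1 normal array at the floor and a log2 difference of -0.21 (SE 0.66).

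Fdft1, squalene synthase, makes the first intermediate used only for sterols, and its 4 probe sets disagreed. On M95591_at the signals were 4.94 and 4.76 on the diabetic arrays, against 4.32, 6.30 and 7.13 in the normal pools, where normal pool 1 was at the floor. The log2 difference of -1.07 (SE 1.10, 95% interval -3.81 to 1.68) was the only one of the 18 beyond 1 in size, a size that 3.24% of all tested probe sets exceeded. Without normal pool 1 it was -1.90, with an unadjusted p of 0.0275 and an adjusted p of 0.945 in limma. On rc_H33426_at the order of the normal pools was turned round, with 5.77 and 5.70 on the diabetic arrays, against 6.69, 6.03 and 5.78 in normal pools 1, 2 and 3. Both diabetic arrays lay below all normal pools on that probe set, diabetic array 1 only narrowly, as for 7.01% of all tested probe sets, and the log2 difference was -0.44 (SE 0.55). The remaining M95591_g_at and rc_H33426_g_at had differences of 0.20 (SE 0.86) and -0.01 (SE 0.52).

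Sqle, squalene epoxidase, which adds oxygen to squalene and is a rate-limiting step of the sterol branch, had signals of 7.22 and 7.45 on the diabetic arrays, against 6.92, 7.35 and 7.70 in the normal pools (D37920_at). Both diabetic arrays lay inside the normal range. The log2 difference was 0.02 (SE 0.42, 95% interval -1.04 to 1.07), so the ratio of diabetic to normal lay between 0.486 and 2.10.

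Lss closes epoxidised squalene into lanosterol, the first sterol. On D45252_s_at it had signals of 6.88 and 6.00 on the diabetic arrays, against 6.77, 6.98 and 6.73 in the normal pools. The 2 diabetic arrays stood 0.88 apart on the log2 scale, diabetic array 1 inside the normal range and diabetic array 2 below it. The log2 difference was -0.38 (SE 0.39, 95% interval -1.36 to 0.59), and it was 0.06 without diabetic array 2. U31352_at of Lss differed by -0.04 (SE 0.64), and E12275cds_s_at was at the floor on all 5 arrays and was not tested.

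Cyp51, the demethylase that acts on lanosterol, had 5 probe sets with differences from -0.52 to 0.07. On its brightest, U17697_s_at, the signals were 8.25 and 7.46 on the diabetic arrays, against 7.55, 8.05 and 7.90 in the normal pools. The diabetic arrays enclosed all 3 normal pools, and the log2 difference was 0.02 (SE 0.34, 95% interval -0.83 to 0.87). The lowest difference came from rc_AA997614_s_at, with 6.98 and 5.55 on the diabetic arrays, against 6.22, 7.40 and 6.73 in the normal pools (log2 difference -0.52, SE 0.57). Its 2 diabetic arrays stood 1.43 apart, the largest such gap among the 18, and the difference was 0.20 without diabetic array 2. The other 3, AB004096_at, rc_AA963449_s_at and rc_AI230255_at, had differences of -0.06 (SE 0.40), 0.07 (SE 0.48) and -0.30 (SE 0.61).

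**Figure D2:**
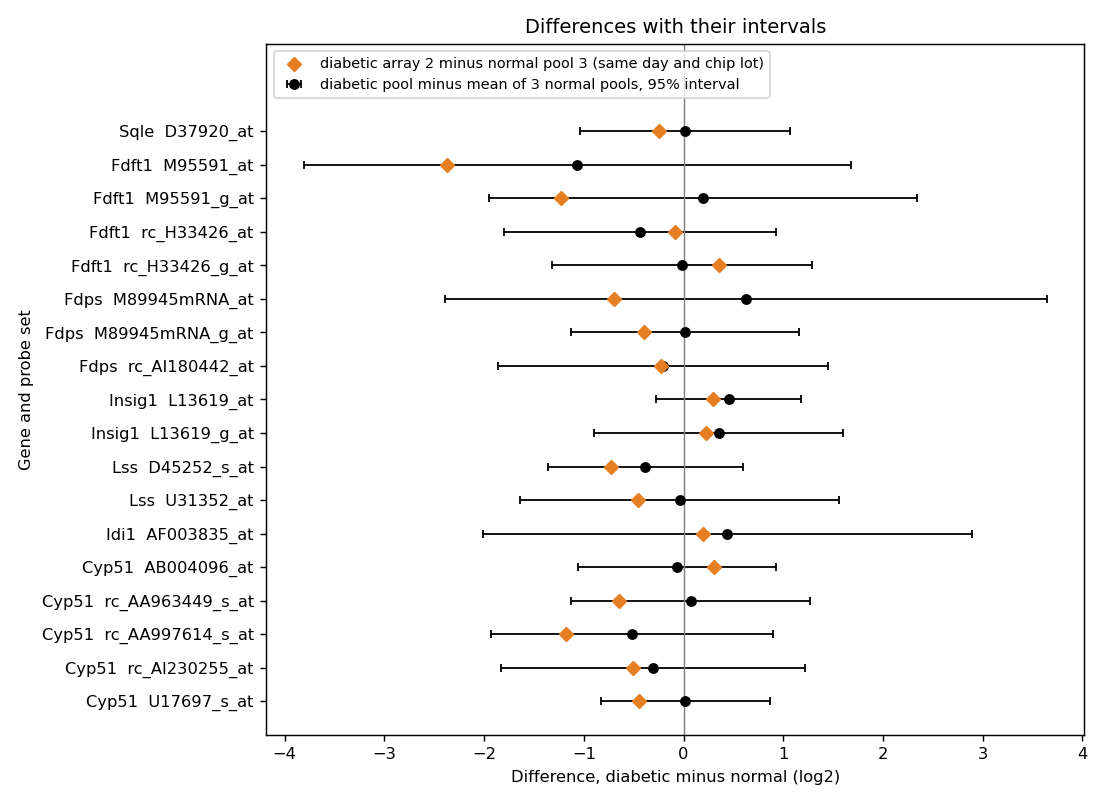
Difference, diabetic minus normal, on the log2 scale for each of the 18 tested probe sets (rows). Black points with bars are the diabetic pool minus the mean of the 3 normal pools with the 95% interval from limma, and every interval includes 0; orange diamonds are diabetic array 2 minus normal pool 3, which shared a processing day and chip lot, and 13 of the 18 lie below 0.

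The normal pools themselves differed in these genes. Normal pool 1 was the lowest of the 3 normal pools on 12 of the 18 probe sets, against 38.8% of all tested probe sets, and its signal minus the mean of pools 2 and 3 had a median of -0.60, against -0.01 over all tested probe sets. Some other lists were also low in that pool and some were not. It was lowest on 12 of 19 tested probe sets of inner retinal neuron markers, at a median of -0.65. Their mean signal was 6.76 and 6.80 on the diabetic arrays, against 6.36, 7.39 and 6.78 in normal pools 1, 2 and 3. The like medians were -0.44 for microglia and leukocyte markers and -0.44 for the isoprenoid branch. In the remaining lists they ran from -0.26 for efflux, storage and oxysterol genes to 0.72 for photoreceptor markers, where pool 1 was lowest on 0 of 15 tested probe sets. They were also above 0 for uptake genes, SREBP regulation and the markers of endothelium and pericytes, pigment epithelium and erythrocytes. For normal pool 3 the like median, against pools 1 and 2, was 0.56, and 0.03 over all tested probe sets. As a description only, without a share over all tested probe sets, the diabetic mean lay above normal pool 1 on 13 and below normal pool 3 on 14 of the 18. These positions differed between probe sets of a gene, as for Fdft1, where normal pool 1 was lowest on the M95591 pair and highest on the H33426 pair.

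Per the array records, diabetic array 2 and normal pool 3 shared a processing day and a chip lot. Normal pools 1 and 2 shared their combination of day and lot with no other array, and diabetic array 1 has no such entry. Day and lot were compared only together, so a shared day or lot alone is not seen. Within that day, diabetic array 2 minus normal pool 3 had a median of -0.42 over the 18, with 13 below 0, against a median of 0.01 and 48.2% below 0 over all tested probe sets. With 1 array on each side this difference has no test. The actin 3′ to 5′ ratio, which is higher where RNA is degraded or incompletely copied, was 2.55 on diabetic array 2 and 2.61 on normal pool 1, and 1.46 to 1.76 on the other arrays. The like ratio of GAPDH was 1.35 on diabetic array 2 and 1.16 on normal pool 1, and 1.03 to 1.24 on the other arrays. Photoreceptor markers, with 10 genes tested, had a mean signal of 9.62 and 9.60 on the diabetic arrays, against 9.35, 9.17 and 8.43 in normal pools 1, 2 and 3, and 14 of their 15 tested probe sets had positive differences. Müller cell markers averaged 10.4 and 10.1 on the diabetic arrays, against 10.3, 10.4 and 10.7 in the normal pools, with positive differences on 5 of 16 tested probe sets of 8 genes. The mean signals of all marker lists given here are over the brightest tested probe set of each gene, while the counts are over all tested probe sets. Dimmer probe sets of Kcnj10 and Slc1a3 that were at the floor on some arrays are therefore not in these means. The part of the day, of RNA integrity and of other cell types in the results on sterol genes was not tested.

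**Figure D3:**
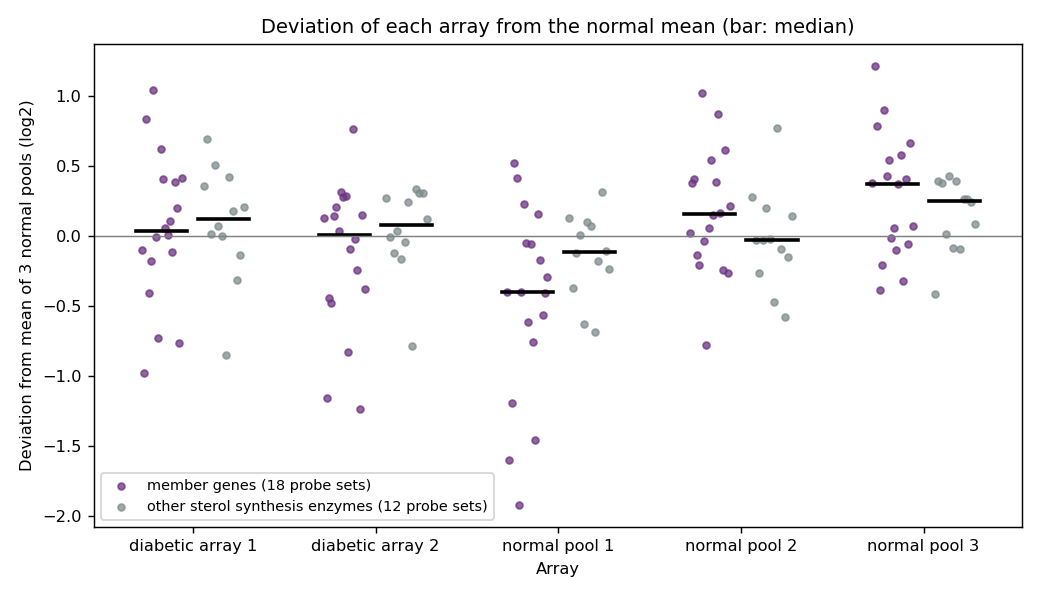
Deviation of each array (horizontal axis) from the mean of the 3 normal pools, on the log2 scale, for the 18 tested probe sets of the member genes (purple) and the 12 of other sterol synthesis enzymes (grey); points are probe sets and bars are medians. The medians of the diabetic arrays lie near 0, while the purple points of normal pool 1 lie mostly below it and those of normal pool 3 mostly above.

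Other enzymes of sterol synthesis, from a list of further pathway genes, also showed no difference past the test. Of 12 tested probe sets of 8 genes 6 had positive and 6 negative differences, with a median of 0.04, and 0 passed limma's test, adjusted or unadjusted. Dhcr7, the reductase of the last step, had signals of 7.81 and 7.72 on the diabetic arrays, against 7.58, 7.73 and 7.04 in the normal pools (AB016800_at, log2 difference 0.31, SE 0.40). Its paired probe set AB016800_g_at differed by 0.34 (SE 0.41). Msmo1, a methyl sterol oxidase, had 8.62 and 8.78 on the diabetic arrays, against 8.27, 8.36 and 8.71 in the normal pools (rc_AI172293_at, log2 difference 0.26, SE 0.30), and -0.05 (SE 0.42) on E12625cds_at. The groups overlapped for both genes. Mevalonate diphosphate decarboxylase, Mvd, differed by 0.17 (SE 0.35), the sterol isomerase Ebp by 0.09 (SE 0.43), Hsd17b7 by -0.003 (SE 0.58) and the sterol dehydrogenase Nsdhl by -0.30 (SE 0.55). Mevalonate kinase, Mvk, differed by 0.28 (SE 0.46) and -0.18 (SE 0.68, with diabetic array 2 at the floor) on its 2 probe sets, and Acat2, an acetyl transferase that supplies the first step, by -0.04 (SE 0.53) and -0.02 (SE 0.25). On the first Mvk probe set, M29472_at, both diabetic arrays lay above all normal pools, as for 9.53% of all tested probe sets. Diabetic array 2 did so only narrowly, at 4.86 against 4.84 in normal pool 3. Lbr was too dim to be tested. Normal pool 1 was lowest of the normal pools on 5 of these 12 probe sets, at a median of -0.17 from the others. Normal pool 3 was highest on 7 of the 12, at a median of 0.38 from the others, and within the shared day the median was 0.03 with 5 of the 12 below 0.

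The non-sterol branch and the regulators gave a like picture. Of 6 tested probe sets of the isoprenoid branch 5 had positive differences (median 0.11, 0 past limma's test), with the farnesyl transferase subunits Fnta and Fntb at 0.29 (SE 0.30) and 0.03 (SE 0.51), the prenyl transferase subunit Rabggtb at 0.19 (SE 0.57) and the ubiquinone methyltransferase Coq3 at -0.07 (SE 0.48). Of 10 tested probe sets for SREBP regulation 5 had positive and 5 negative differences, with a median of 3.8e-04 and 0 past limma's test. Srebf1, the gene of an SREBP factor, named here for its role, had signals of 8.53 and 8.25 on the diabetic arrays, against 8.49, 8.67 and 8.14 in the normal pools (log2 difference -0.04, SE 0.32). The SREBP-cleaving protease Mbtps2 differed by 0.44 (SE 0.57) and Sp1 by 0.34 (SE 0.83, with 1 normal array at the floor). The NF-Y subunit gene Nfyc differed by -0.26 (SE 0.27). Creb1 differed by -0.67 (SE 0.48), with both diabetic arrays below all normal pools, as for 7.01% of all tested probe sets. The highest difference of the 10 was 0.82 (SE 0.59) on M60617_at, a dimmer probe set of the NF-Y subunit gene Nfyb. Both diabetic arrays lay above all normal pools there, as for 9.53% of all tested probe sets. The brightest Nfyb probe set, rc_AA817843_at, differed by 0.07 (SE 0.39), and M60617_g_at by 0.04 (SE 0.59).

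**Figure D4:**
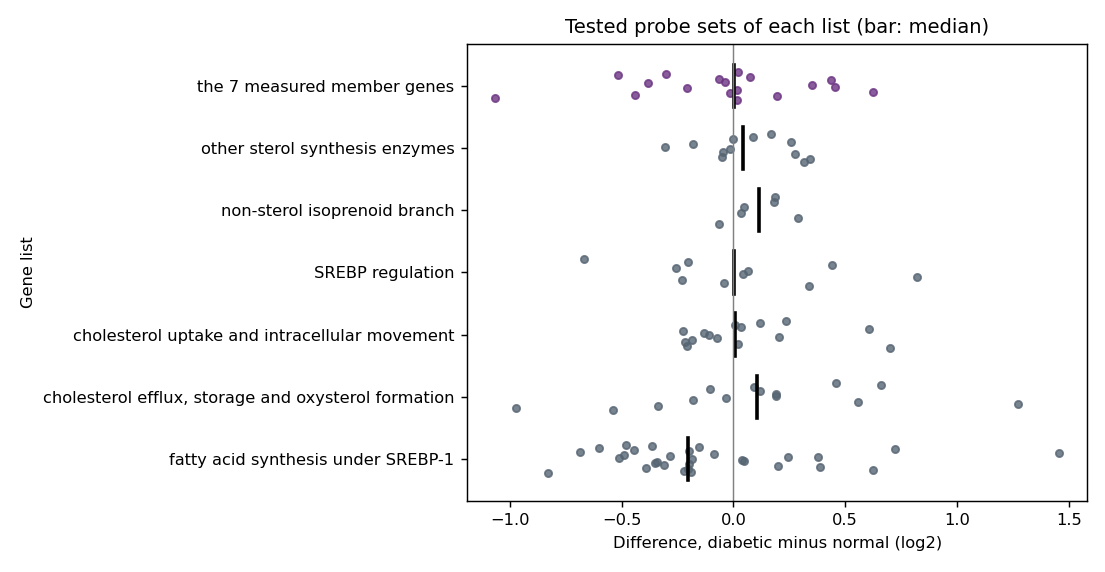
Log2 difference, diabetic minus normal, of every tested probe set (points) of the member genes and of 6 lists of related genes (rows), with the median of each as a bar. The medians run from -0.20 for fatty acid synthesis to 0.11 for the isoprenoid branch, and the single points beyond 1 are Cyp27a1, Pnpla3 and 1 probe set of Fdft1.

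Among uptake genes Scarb1, the receptor that takes cholesterol from HDL, stood above normal on 2 of its 3 probe sets. On AF071495_s_at its signals were 9.67 and 9.0 on the diabetic arrays, against 8.67, 8.80 and 8.43 in the normal pools. Both diabetic arrays lay above all normal pools, as for 9.53% of all tested probe sets. The log2 difference was 0.70 (SE 0.28), with an unadjusted p of 0.0486 but an adjusted p of 0.9999 in limma. An unadjusted p under 0.05 was found for 1.6% of all tested probe sets. The difference was 0.37 without diabetic array 1. Its other probe sets differed by 0.61 (SE 0.31) on rc_AA874843_s_at and by -0.21 (SE 0.34) on D89655_at. Over the uptake list 8 of 15 tested probe sets had positive and 7 negative differences, with a median of 0.007. Of its other named genes, Vldlr, a lipoprotein receptor, differed by 0.20 (SE 0.47), Lrp2, a multiligand receptor, by -0.07 (SE 0.51) and the sterol carrier Scp2 by -0.13 (SE 0.27).

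In the list of efflux, storage and oxysterol genes Cyp27a1, the mitochondrial enzyme that converts cholesterol to an oxysterol, had the largest difference. Its signals on M38566mRNA_s_at were 7.19 and 7.49 on the diabetic arrays, against 5.83, 6.10 and 6.27 in the normal pools. Both diabetic arrays lay above all normal pools, as for 9.53% of all tested probe sets. The mean was 2.42 times normal (log2 difference 1.27, SE 0.44, unadjusted p = 0.0302, adjusted p = 0.9999 in limma). Within the shared day the difference was 1.22. Its second probe set, Y07534cds_s_at, differed by 0.46 (SE 0.49). Beside both Scarb1 and Cyp27a1, microglia and leukocyte markers had a mean signal of 7.0 and 7.15 on the diabetic arrays, against 6.31, 6.42 and 6.48 in the normal pools, with 9 of 10 tested probe sets of 7 genes above normal; their part in these values was not tested. Apod, a small apolipoprotein, differed by 0.66 (SE 0.61, with 1 normal array at the floor), Soat1, which esterifies cholesterol for storage, by -0.54 (SE 0.71, with 1 normal and 1 diabetic array at the floor), and Apoa1, the HDL apolipoprotein, by -0.97 (SE 0.51, with diabetic array 2 at the floor). Over the list 8 of 14 tested probe sets had positive differences (median 0.11), and 0 passed limma's adjusted test. There was 1 at an unadjusted p under 0.05, against 1.6% of all tested probe sets.

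Fatty acid synthesis genes, which the SREBP factors also control, had negative differences on 21 of 30 tested probe sets, which belonged to 12 genes. The other 9 were positive, as were 48.8% of all tested probe sets. The median difference was -0.20, against -0.01 over all tested probe sets. Scd2, Gpam and Me1 each had several of these probe sets, most of them negative, so the count weighs a few genes more. By their brightest probe sets the genes lay on both sides of 0. Scd2 differed by 0.05 (SE 0.29) and Me1 by 0.24 (SE 0.66), against -0.34 (SE 0.36) for Fasn and -0.20 (SE 0.37) for Scd. Over the brightest probe set of each gene the mean signal was 7.81 and 7.57 on the diabetic arrays, against 7.39, 7.65 and 7.84 in normal pools 1, 2 and 3. Of the 30 probe sets 0 passed limma's adjusted test. The 1 with an unadjusted p under 0.05 was of Pnpla3, against 1.6% of all tested probe sets. Pnpla3, a lipid droplet protein, differed by 1.46 (SE 0.58), with 2 of 3 normal arrays at the floor, and Acsl1, which activates fatty acids, by 0.62 (SE 0.43). Acaca, the carboxylase that starts fatty acid synthesis, differed by -0.39 (SE 0.49) and the acyltransferase Gpam by -0.60 (SE 1.38). Within the shared day 22 of the 30 were lower on diabetic array 2 than in normal pool 3, against 48.2% of all tested probe sets, with a median of -0.44. Within that day Müller cell markers were lower on 13 of 16 tested probe sets, with a median of -0.39, and over all pools they had a median difference of -0.18; their part in these values was not tested.

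The member genes differed in how near their profiles over the 5 arrays lay to each other. The root mean square difference of each gene's brightest probe set from the mean profile of the 7, after centring, was 0.21 for Cyp51, 0.24 for Sqle, 0.31 for Insig1, 0.40 for Lss, 0.62 for Idi1, 0.64 for Fdft1 and 0.83 for Fdps. Each gene is itself part of that mean, and the Fdft1 and Fdps probe sets used here have partners that behaved differently. Of 3616 other genes, those closest to that mean profile were Nkapd1, Anapc4, Itgb3, Ago1 and Masp1, at 0.06 to 0.09, against a median of 0.45. All of these profiles share the same 5 arrays, and this likeness is a description only.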

How the data were processed

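Total RNA of pooled rat Müller cells was hybridised to Affymetrix rat expression arrays, per the file headers. The authors deposited 1 intensity per probe set for each array, on a linear scale; for their summary algorithm and scaling, nothing is given in the sources used here. Arrays were not on a common scale (medians 27.9 to 91.3 over 8799 probe sets), so they were quantile-normalised, floored at 20 and converted to log2. After leaving out 59 control probe sets, the dimmest 30% were dropped and 6118 of 8740 were tested. Folds of dim genes are understated by the floor.

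The diabetic arrays were averaged into 1 pool and set against the 3 normal pools with limma 3.58.1 (R 4.3.3; lmFit and eBayes with trend, two-sided), and p-values of the whole table were adjusted by Benjamini-Hochberg. Residual degrees of freedom were 2 and prior ones 3.54, and all spread came from the normal pools. The smallest exact permutation p for 1 pool against 3 is 0.25. The step was tested on simulated data of this design, where most of the changes put in, large ones included, were not called. A count of 0 therefore says little about large or small changes. Intervals are 95%. The number of arrays limits the precision.

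Symbols came from the platform annotation, of which 7006 probe sets had 1 symbol, 308 several and 1426 none; 6985 matched RefSeq (GRCr8) by Entrez ID. Probe sets with several or no symbols were not named. Members and lists were chosen with earlier results of these data known. Named were every member probe set, every other measured sterol synthesis enzyme, and the 2 highest and 2 lowest genes of each remaining list by brightest probe set. A few further genes are named where their probe sets bear on a list. Promoter windows were to be shown for members with a sterol element match; as there were 0, the 3 shown were chosen afterwards. Marker lists covered Müller cells, photoreceptors, microglia and leukocytes, inner retinal neurons, endothelium and pericytes, pigment epithelium and erythrocytes, and the last 4 had median log2 differences of -0.10, -0.24, 0.95 and 0.17. Alternatives were other scalings, floors, filters, variance models and sets of arrays. Figures were drawn with matplotlib 3.10.9.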

Additional observations from a re-analysis of the deposited data

How the results depend on the processing

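No paired analysis was possible because the groups compared share fewer than 2 replicate numbers given by the labels, and the diabetic arrays are technical replicates of 1 pool. No member probe set had an adjusted p under 0.05 in limma under any alternative. Of the 18 tested member probe sets, 3 kept their sign under every alternative, namely both of Insig1 and M95591_at of Fdft1 (-2.37 to -0.52), and 14 changed sign when 1 array was left out. The median difference over the members was 0.49 with the deposited values unscaled, where that of all tested probe sets was 0.47, and -0.42 between the 2 arrays of the shared day, and -0.19 to 0.12 when 1 array was left out. Members at an unadjusted p under 0.05 numbered 1 with a floor of 50 and 1 with no filter (both Insig1 L13619_at), and 0 to 1 when 1 array was left out (Fdft1 M95591_at without normal pool 1).

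Over all probe sets, adjusted calls numbered 147 with a floor of 50 and 170 with no filter, of which 138 and 162 had all normal arrays at the floor and so no spread there, and 13 with each array entered as a sample. At an unadjusted p under 0.05, 73 lay above and 25 below normal, against 34 and 0 unscaled, 53 and 8 with median scaling, 282 and 55 with a floor of 50, 304 and 86 with no filter, 168 and 78 with each array entered as a sample, 279 and 259 from only the 3 arrays whose actin ratio was under 2, and 46 to 168 above and 8 to 157 below when 1 array was left out.

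Log2 differences changed sign as follows, none of them a called value, and the cause was not tested. The sign differed with median scaling, with -0.011 for Sqle D37920_at and -0.0081 for Fdps M89945mRNA_g_at. The sign differed when just the 3 arrays of low actin ratio were kept, with -0.31 for Sqle D37920_at, 0.035 for Fdft1 rc_H33426_g_at, -0.21 for Fdps M89945mRNA_g_at, 0.027 for Lss D45252_s_at, -0.65 for Idi1 AF003835_at, 0.058 for Acat2 rc_AA859980_g_at, 0.084 for Mvk rc_AA924198_s_at, -0.20 for Ebp rc_H33491_at, -0.063 for Fnta M81225_at, -0.17 for Rabggtb S62097_s_at, -0.28 for Sp1 D12768_at, 0.036 for Acaca J03808_at and 0.12 for Srebf1 L16995_at. Among the members the sign differed between the 2 arrays of the shared day, with -0.25 for Sqle D37920_at, -1.23 for Fdft1 M95591_g_at, 0.35 for Fdft1 rc_H33426_g_at, -0.69 for Fdps M89945mRNA_at, -0.40 for Fdps M89945mRNA_g_at, 0.30 for Cyp51 AB004096_at, -0.65 for Cyp51 rc_AA963449_s_at and -0.45 for Cyp51 U17697_s_at. Other genes also changed sign there, with -0.40 for Dhcr7 AB016800_g_at, -0.31 for Rabggtb S62097_s_at, -0.40 for Sp1 D12768_at and 0.27 for Nfyc rc_AA875121_at. Smaller values of the other sign were 0.12 for Srebf1 L16995_at, 0.046 for Acat2 rc_AA859980_g_at, 0.042 for Hsd17b7 rc_AI236145_at and 0.0058 for Scarb1 D89655_at. The sign differed unscaled, with 0.12 for Fdft1 rc_H33426_at, 0.35 for Fdft1 rc_H33426_g_at, 0.15 for Lss D45252_s_at, 0.45 for Lss U31352_at, 0.47 for Cyp51 AB004096_at, 0.013 for Cyp51 rc_AA997614_s_at, 0.46 for Msmo1 E12625cds_at, 0.44 for Acat2 rc_AA859980_at, 0.51 for Acat2 rc_AA859980_g_at, 0.12 for Mvk rc_AA924198_s_at, 0.17 for Hsd17b7 rc_AI236145_at, 0.42 for Coq3 L20427_at, 0.25 for Nfyc rc_AA875121_at, 0.43 for Lrp2 L34049_g_at, 0.37 for Scp2 M62763complete_seq_at, 0.14 for Acaca J03808_at and 0.47 for Srebf1 L16995_at. The sign differed with a floor of 50, with -0.10 for Sp1 D12768_at. When 1 array was left out, member differences ranged from -0.19 to 0.20 for Sqle D37920_at, -0.44 to 0.82 for Fdft1 M95591_g_at, -0.18 to 0.20 for Fdft1 rc_H33426_g_at, -0.34 to 1.14 for Fdps M89945mRNA_at, -0.18 to 0.23 for Fdps M89945mRNA_g_at, -0.71 to 0.31 for Fdps rc_AI180442_at, -0.82 to 0.055 for Lss D45252_s_at, -0.42 to 0.15 for Lss U31352_at, -0.30 to 0.88 for Idi1 AF003835_at, -0.22 to 0.018 for Cyp51 AB004096_at, -0.24 to 0.40 for Cyp51 rc_AA963449_s_at, -1.23 to 0.20 for Cyp51 rc_AA997614_s_at, -0.66 to 0.15 for Cyp51 rc_AI230255_at and -0.38 to 0.42 for Cyp51 U17697_s_at. Those of the other genes ranged from -0.0053 to 0.70 for Dhcr7 AB016800_g_at, -0.18 to 0.14 for Msmo1 E12625cds_at, -0.36 to 0.16 for Acat2 rc_AA859980_at, -0.055 to 0.034 for Acat2 rc_AA859980_g_at, -0.87 to 0.24 for Nsdhl rc_AA893032_at, -0.77 to 0.43 for Mvk rc_AA924198_s_at, -0.32 to 0.30 for Hsd17b7 rc_AI236145_at, -0.14 to 0.31 for Ebp rc_H33491_at, -0.28 to 0.12 for Coq3 L20427_at, -0.13 to 0.35 for Fntb rc_AI136396_at, -0.22 to 0.39 for Rabggtb S62097_s_at, -0.24 to 0.62 for Sp1 D12768_at, -0.62 to 0.091 for Nfyc rc_AA875121_at, -0.33 to 0.17 for Lrp2 L34049_g_at, -0.36 to 0.082 for Scp2 M62763complete_seq_at, -0.95 to 0.18 for Acaca J03808_at, -2.25 to 1.08 for Gpam U36773_at and -0.19 to 0.095 for Srebf1 L16995_at.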
